A study of Mus musculus with 4 samples.

Results

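The genes of the MAP kinase cascade and the DUSP phosphatases were measured in CD69+CD4+CD8+ (CD69+DP) thymocytes, the double-positive cells that have received a TCR signal and begun positive selection. The members were all listed genes whose symbol is Mapk, Map2k, Map3k, Map4k or Dusp followed by a number, which gave 65 of the 24421 genes in the table: 13 MAPK, 7 MAP2K, 16 MAP3K, 5 MAP4K and 24 DUSP genes. The rule uses symbols and no measured value. The cells came from the adult thymus of 6-week-old C57BL/6 mice. In the 2 control samples the mice carried floxed alleles of *Foxa1* and *Foxa2* (Foxa1fl/flFoxa2fl/fl) without Cre, and in the 2 Foxa1/2cKO samples they carried the same floxed alleles with the CD4Cre transgene, which is active from the DP stage onwards. The 4 samples were sorted separately from different mice and were not treated further. The question was whether loss of the forkhead transcription factors *Foxa1* and *Foxa2* changed the transcript level of the genes of this pathway. Levels per gene do not show which exons were used.

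MAP kinases work in relays. A MAP4K or a small GTPase such as Ras activates a MAP3K, which phosphorylates a MAP2K, which in turn phosphorylates both the threonine and the tyrosine of the activation loop of a MAPK. The main branches end in ERK, JNK, p38 and ERK5, and dual-specificity phosphatases (DUSPs) of the MAP kinase phosphatase (MKP) group remove both phosphates again, several of them being induced by the pathway that they switch off. In DP thymocytes the ERK branch carries the TCR signal for positive selection, whereas JNK and p38 have been linked to negative selection and stress. These kinases are regulated mostly by phosphorylation, which RNA levels do not measure.

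Levels are given in FPKM, that is, sequenced fragments divided by gene length and sample depth, a scale on which genes can be compared with each other. Recovered whole reads totalled 14482765 and 13071250 for the controls, against 10396878 and 11262416 for Foxa1/2cKO. Group differences come from limma on log2(FPKM + 1). The 10776 genes that reached 1 FPKM in 2 or more samples were tested, with Benjamini-Hochberg adjustment over all of them. With 2 samples a group, an exact permutation test cannot give a two-sided p under 0.333, so P-values here rest on the spread that limma shares across genes. Neither *Foxa1* nor *Foxa2* was above 0 in any of the 4 samples, so the genotypes could not be checked by them. The labelled cell type was met by its markers: *Cd4* ranged from 342 to 446 FPKM, *Cd8a* from 475 to 666 FPKM and *Cd69* from 103 to 121 FPKM over the 4 samples.

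Foxa1/2cKO 2 stood apart from the other 3 samples. The summed FPKM of 8 cycling genes was 429.8 in control 1, 455 in control 2 and 489 in Foxa1/2cKO 1, but 156 in Foxa1/2cKO 2. The sum of 7 genes of mature SP thymocytes was 289, 328 and 326 in the same 3 samples and 196 in Foxa1/2cKO 2, and that of 13 DP thymocyte genes was 4563, 4650 and 4536 against 5707. Within that list *Ptcra*, the gene of the pre-TCR alpha chain, went the other way, at 11.2 and 11.9 FPKM in the controls, 7.44 FPKM in Foxa1/2cKO 1 and 3.23 FPKM in Foxa1/2cKO 2. Other cell types left low sums: the B cell list ranged from 54.6 to 111, the myeloid list from 25.5 to 42.0, the thymic epithelial list from 4.89 to 7.61 and the erythroid list from 0.608 to 2.67, with 5 of its 8 genes at 0 in every sample. In these bulk samples fewer cells of a type and less RNA per cell cannot be told apart.

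Of the 65 members, 48 passed the filter and were tested: 9 MAPK, 7 MAP2K, 13 MAP3K, 5 MAP4K and 14 DUSP genes. The other 17 were at most at trace levels. *Mapk10*, the JNK3 gene, *Mapk13*, the p38 delta gene, *Mapk4* and *Mapk15* did not exceed 0.144 FPKM in any sample. *Map3k6*, *Map3k9* and *Map3k19* did not exceed 0.618 FPKM. Among the DUSPs, *Dusp3*, *Dusp8*, *Dusp9*, *Dusp14*, *Dusp18* and *Dusp27* did not exceed 0.333 FPKM, and *Dusp13*, *Dusp15*, *Dusp21* and *Dusp26* were listed at 0 in all 4 samples. *Mapk4* was at 0.0145 and 0.0160 FPKM in the controls and at 0 in Foxa1/2cKO, where a count of 0 still allows up to 3 reads, or 0.0602 and 0.0586 FPKM for a gene of its length (counting error only), so no difference was detectable at this depth.

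**Figure D1:**
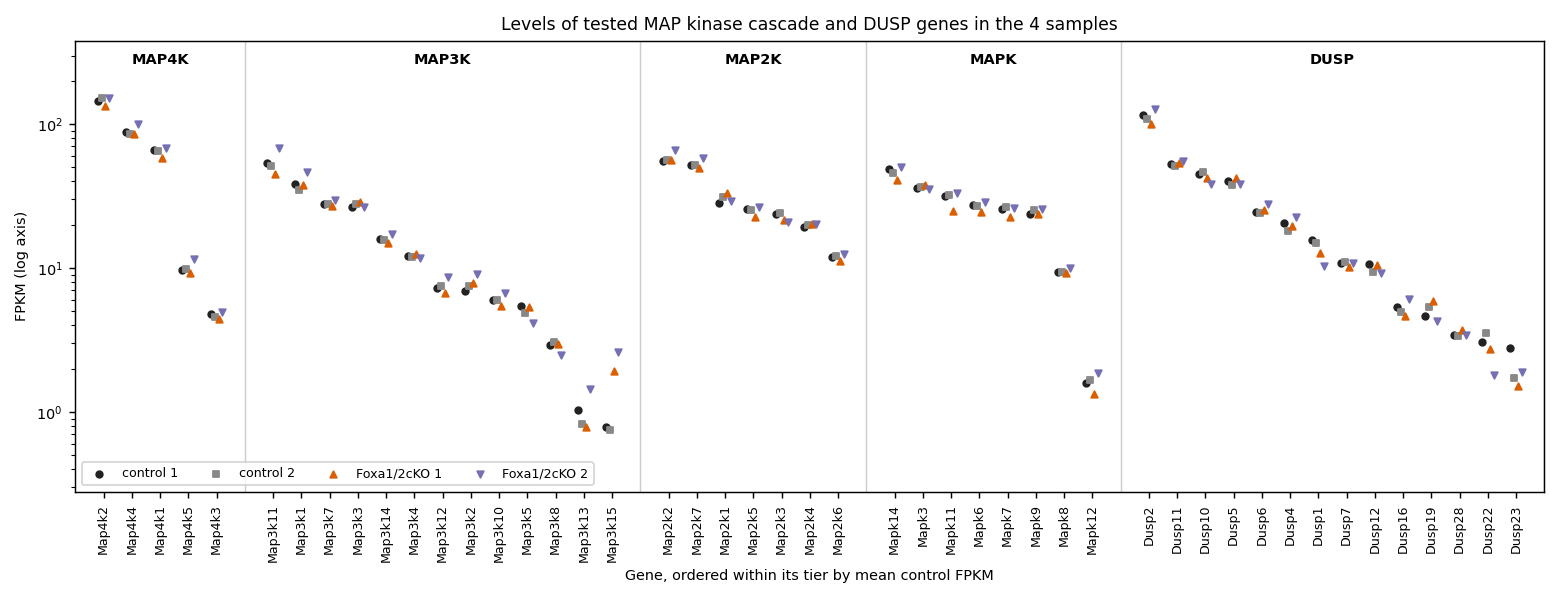
FPKM of the tested genes, 1 of the 48 not shown, on a log axis, 1 symbol per sample, with genes ordered within their tier by mean control FPKM. The 4 samples of a gene lie close together against the range between genes, from Map4k2 (134 to 152 FPKM) down to Map3k15 (0.745 to 2.59 FPKM), and Map3k15 and Dusp1 are among the few genes whose Foxa1/2cKO symbols stand away from the controls.

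No member passed the test of genotype. With limma, 0 of 48 had an adjusted p under 0.05 (the lowest adjusted p was 0.863), where 0.00928% of all genes tested passed. An unadjusted p under 0.05 was found for 1 member that was higher in Foxa1/2cKO, *Map3k15*, and for 1 that was lower, *Dusp1*, where 4.55% of all genes had such a p. limma-voom on the recovered reads gave the same counts at both thresholds. By direction the shares of all genes were 2.39% higher and 2.15% lower, so 1 of 48 in each direction is near the background and is no result about the family.

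The differences of the members were small. The absolute log2 fold change was under 0.25 for 45 of 48 members (93.75%), against 82.4% of all genes tested, and its median was 0.06 for the members and 0.11 for all genes. The 95% interval of the difference lay within 1.5-fold of no difference, on the FPKM + 1 scale, for 42 of 48 members, against 70.2% of all genes, and for low genes that scale allows a larger fold in FPKM. The median log2 fold change was 0.01 over the members and 0.01 over all genes. By tier it was 0.01 for MAP4K, 0.04 for MAP3K, 0.04 for MAP2K, -0.03 for MAPK and 0.01 for DUSP genes.

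For 6 members each Foxa1/2cKO sample exceeded each control (*Map2k4*, *Map3k2*, *Map3k15*, *Dusp6*, *Dusp11* and *Dusp28*) and for 4 it was below each control (*Map2k3*, *Dusp1*, *Dusp10* and *Dusp22*). Over all genes the shares were 18.9% above and 17.8% below, both larger than among the members. The order of the 4 samples was more lopsided: Foxa1/2cKO 2 was the highest of the 4 for 30 of 48 members, against 40.5% of all genes, and Foxa1/2cKO 1 the lowest for 23, against 29.1%. Foxa1/2cKO 2 is also the sample with the low cycling and mature SP sums given above, and the part of those cells in its levels was not tested. That sample differed in scaling as well, since its recovered reads (11262416) exceeded the depth that divided its FPKM (11093927). In each other sample the reads fell short of that depth, as in Foxa1/2cKO 1 (10396878 against 10796528). Relative to the other samples, the FPKM of Foxa1/2cKO 2 therefore stand higher than with scaling to recovered reads. The part of this scaling in the order of the samples was not tested.

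**Figure D2:**
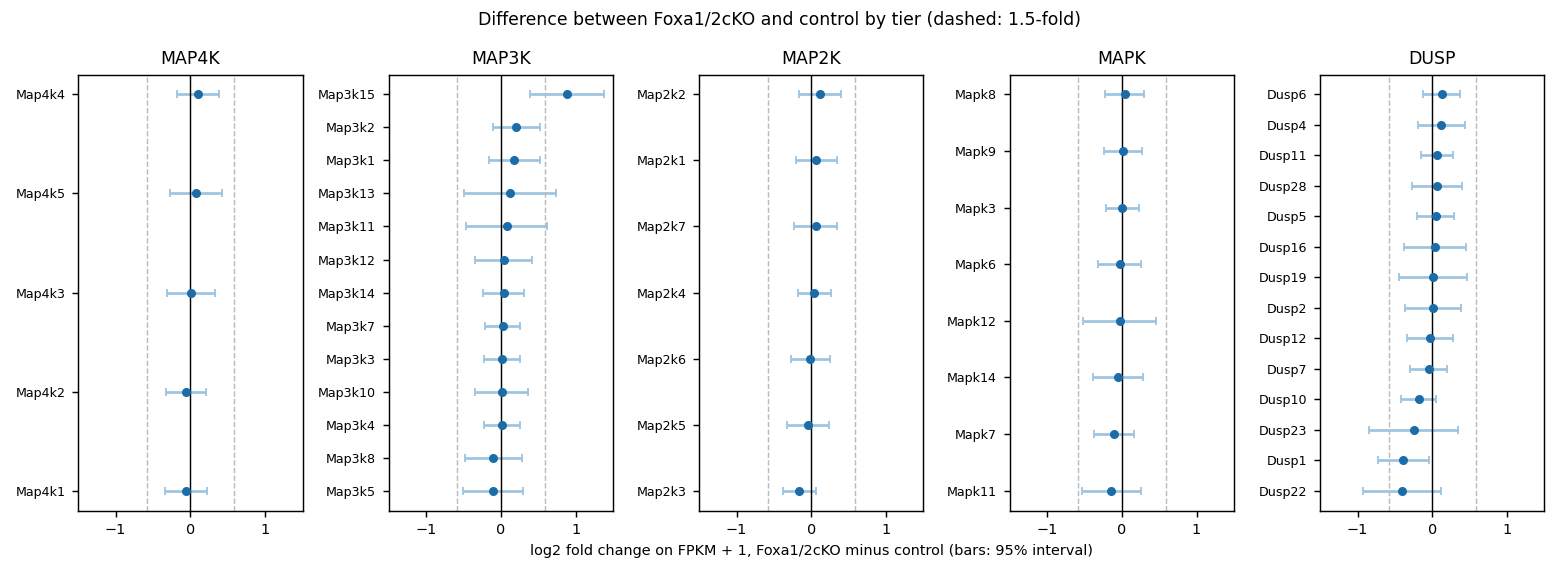
Fitted difference between Foxa1/2cKO and control for the tested genes, 1 of the 48 not shown, by tier, on the log2(FPKM + 1) scale; points are the estimates, bars their 95% intervals from limma and dashed lines 1.5-fold on that scale. Map3k15 (0.88) and Dusp1 (-0.39) are the 2 genes whose interval does not reach 0. Map3k15 passed the filter through the Foxa1/2cKO samples alone, so its interval cannot serve as a test.

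The MAP4Ks act at the top of the JNK branch, and 3 of the 5 had a higher mean control level than any other kinase of the relay. *Map4k2* (germinal centre kinase) was at 145 and 152 FPKM in the controls and at 134 and 152 FPKM in Foxa1/2cKO. It ranked 340 of the 10776 genes tested by mean control level and made up 45.2 to 48.0% of the MAP4K sum. Its log2 fold change was -0.06 (95% interval -0.32 to 0.21, limma).

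*Map4k4* (HGK), a kinase linked to JNK signalling and the cytoskeleton, was next, at 88.2 and 85.0 FPKM in the controls and 85.9 and 100.2 FPKM in Foxa1/2cKO. *Map4k1* (HPK1), a haematopoietic brake on TCR signalling that phosphorylates SLP-76, was at 65.6 and 65.2 FPKM in the controls and 57.9 and 67.8 FPKM in Foxa1/2cKO. In both genes Foxa1/2cKO 2 lay above the controls and Foxa1/2cKO 1 within or below their range. *Map4k5* was at 9.63 and 9.79 FPKM against 9.19 and 11.5 FPKM, and *Map4k3* ranged from 4.43 to 4.99 FPKM over the 4 samples. For all 5 MAP4K genes the 95% interval lay within 1.5-fold of no difference on the FPKM + 1 scale.

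The tested MAP3K genes ranged from under 1 FPKM to over 50. *Map3k11* (MLK3), an activator of JNK and p38, led it with 53.3 and 51.4 FPKM in the controls, but the Foxa1/2cKO samples were at 45.0 and 67.8 FPKM, below and above both controls. Its log2 fold change was 0.08 (95% interval -0.46 to 0.62), and with Foxa1/2cKO 1 or Foxa1/2cKO 2 left out it was 0.37 or -0.21.

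*Map3k1* (MEKK1), a kinase of the JNK branch that is also a ubiquitin ligase, was at 38.5 and 34.9 FPKM in the controls and 37.7 and 46.3 FPKM in Foxa1/2cKO (log2 fold change 0.18, 95% interval -0.16 to 0.53, with 0.037 when Foxa1/2cKO 2 and 0.33 when Foxa1/2cKO 1 was left out). Foxa1/2cKO 1 therefore fell within the control range and Foxa1/2cKO 2 above it. *Map3k7* (TAK1), which couples the TCR and cytokine receptors to NF-kB, JNK and p38, was at 27.8 FPKM in each control and at 27.1 and 29.5 FPKM in Foxa1/2cKO. Its Foxa1/2cKO samples lay on either side of the controls.

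*Map3k2* (MEKK2), which feeds the ERK5 and JNK branches, was at 6.89 and 7.47 FPKM in the controls and at 7.84 and 9.10 FPKM in Foxa1/2cKO. Both Foxa1/2cKO samples were thus above both controls, and the difference (log2 fold change 0.21, standard error 0.12, adjusted p = 0.863 from limma) did not pass the test. It was 0.11 without Foxa1/2cKO 2 and 0.31 without Foxa1/2cKO 1. *Map3k8* (TPL2), an activator of the ERK branch outside Ras, was low at 2.48 to 3.06 FPKM. *Map3k14* (NIK), the kinase of the alternative NF-kB route, ranged from 15.0 to 17.3 FPKM, and *Map3k5* (ASK1), a sensor of oxidative stress, from 4.13 to 5.41 FPKM, with Foxa1/2cKO 2 the lowest.

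*Map3k15* (ASK3), a relative of ASK1, showed the largest difference of the 48. It was at 0.784 and 0.745 FPKM in the controls and at 1.94 and 2.59 FPKM in Foxa1/2cKO, from 51 and 44 reads against 91 and 125 reads. Both Foxa1/2cKO samples stood well above both controls. The mean was 0.764 ± 0.0271 FPKM in control and 2.26 ± 0.462 FPKM in Foxa1/2cKO (SD, n = 2 each), a 2.96-fold ratio. On the log2(FPKM + 1) scale, which understates the change of such a low gene, the difference was 0.88 (standard error 0.19, 95% interval 0.39 to 1.38, adjusted p = 0.863 from limma). Dropping any 1 sample gave differences from 0.74 to 1.03.

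*Map3k15* was the 1 member that passed the filter through the Foxa1/2cKO samples alone. A gene of its control level entered the test only because it was higher there. *Map3k15* is still included in the member counts given here. It is the 1 member counted as higher with an unadjusted p under 0.05 in limma on all 4 samples. Since the filter rested on that difference, its size and interval cannot serve as a test of it. The level of *Map3k15* was in the lowest 0.362% of the genes tested by control mean. The gene lies on the plus strand of the X chromosome (GRCm38, 159988204 to 160123346), and 603 of its exonic bases (13.9%) overlap exons of *Pdha1* on the other strand, a gene of pyruvate dehydrogenase at 81.8 and 87.8 FPKM in the controls and 84.1 and 84.6 FPKM in Foxa1/2cKO. Whether the counting used strand is not given in the sources used here. The flanking gene *Sh3kbp1* was at 87.8 and 84.9 FPKM against 84.4 and 117 FPKM, so it was higher in 1 of the 2 Foxa1/2cKO samples. *Xist*, also on the X chromosome, ranged from 84.1 to 114 FPKM, and the Y-linked *Ddx3y*, *Eif2s3y* and *Kdm5d* were at 0 in all 4 samples. The Y-linked *Uty* was at 0.0172 FPKM in Foxa1/2cKO 2 and at 0 in the other samples.

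All 7 MAP2Ks were tested, and none had an unadjusted p under 0.05. *Map2k2* (MEK2) and *Map2k1* (MEK1), the kinases of ERK, were at 55.5 and 56.5 FPKM and at 28.5 and 31.0 FPKM in the controls. In Foxa1/2cKO they were at 56.0 and 65.9 FPKM and at 33.2 and 29.3 FPKM. *Map2k2* exceeded *Map2k1* by 1.69 to 2.24 times in every sample, and neither gene's groups were apart. *Map2k7* (MKK7), the JNK-specific kinase, was at 51.7 and 52.0 FPKM against 49.6 and 58.6 FPKM. By the GENCODE annotation 35.2% of its exonic bases are also those of *Gm49320* on the same strand. The reads were counted on the RefSeq annotation, and whether this overlap touched the level of *Map2k7* was not tested.

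*Map2k4* (MKK4), which activates JNK and p38, was at 19.3 and 20.0 FPKM in the controls and 20.3 and 20.1 FPKM in Foxa1/2cKO, which exceeded control 2 by less than the controls differed. *Map2k3* (MKK3), a p38 kinase, was the reverse case with a larger gap, at 23.6 and 24.0 FPKM in the controls and 21.5 and 20.8 FPKM in Foxa1/2cKO. The fitted difference on the log2 scale was -0.16 (standard error 0.08, adjusted p = 0.863 from limma), which did not pass. Dropping any 1 sample gave differences from -0.19 to -0.14. The other p38 kinase, *Map2k6* (MKK6), was at 11.8 and 12.1 FPKM against 11.3 and 12.4 FPKM. *Map2k5* (MEK5), the kinase of ERK5, ranged from 22.8 to 26.7 FPKM.

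Among the MAPKs themselves, *Mapk3* (ERK1), a kinase at the end of the ERK branch, was at 36.1 and 36.7 FPKM in the controls and at 37.6 and 35.6 FPKM in Foxa1/2cKO. The Foxa1/2cKO samples lay on either side of both controls, and the interval of the log2 fold change ran from -0.21 to 0.23.

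*Mapk14* (p38 alpha) was at 48.8 and 46.0 FPKM in the controls and at 41.2 and 50.7 FPKM in Foxa1/2cKO. *Mapk11* (p38 beta) followed the same order of samples at 31.7 and 32.0 FPKM against 25.0 and 33.1 FPKM. In both, Foxa1/2cKO 1 was the lowest and Foxa1/2cKO 2 the highest of the 4, and the mean differences (log2 fold changes of -0.05 and -0.14) were smaller than the spread between the 2 Foxa1/2cKO samples. Summed with *Mapk12* and *Mapk13*, p38 transcripts came to 82.2 and 79.8 FPKM in the controls and 67.6 and 85.7 FPKM in Foxa1/2cKO.

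*Mapk9* (JNK2) made up 71.7 to 72.8% of the JNK transcripts, at 23.6 and 25.3 FPKM in the controls and 23.7 and 25.8 FPKM in Foxa1/2cKO. *Mapk8* (JNK1) was at 9.34 and 9.39 FPKM against 9.24 and 10.1 FPKM. The balance of the 2 JNK genes was thus alike in the 4 samples, with ratios of 2.53 to 2.69. *Mapk7* (ERK5) was at 25.8 and 26.7 FPKM against 22.8 and 25.96 FPKM, and the atypical kinase *Mapk6* (ERK3) ranged from 24.6 to 28.9 FPKM. *Mapk12* (p38 gamma) was low, from 1.32 to 1.86 FPKM. For all 9 MAPK genes tested the 95% interval lay within 1.5-fold of no difference on the FPKM + 1 scale, which for *Mapk12* allows a larger fold in FPKM.

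**Figure D3:**
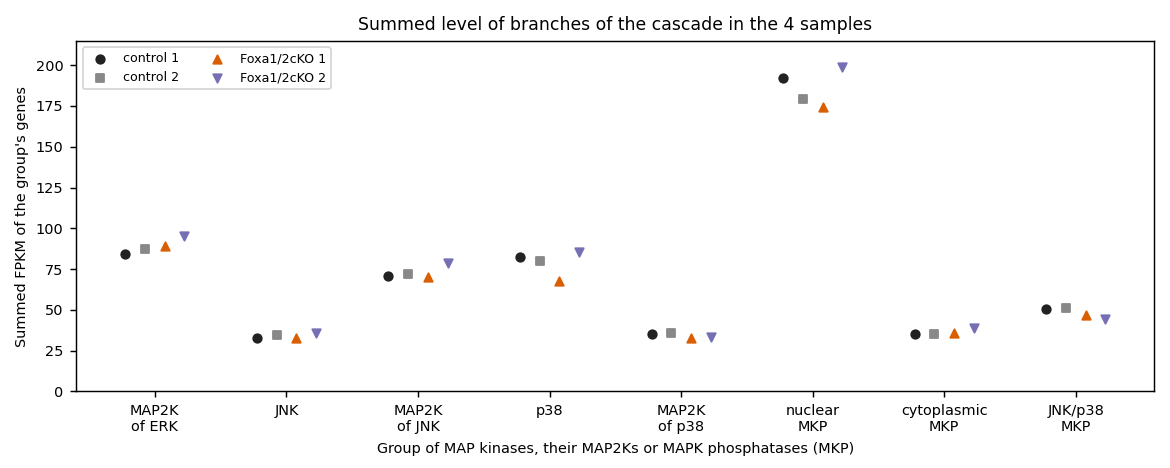
Summed FPKM of the genes of branches of the cascade in the 4 samples, for the JNK and p38 MAPKs, the MAP2Ks of ERK, JNK and p38 and the 3 groups of MAP kinase phosphatases (MKP). The p38 sum is lowest in Foxa1/2cKO 1 (67.6) and highest in Foxa1/2cKO 2 (85.7). The sums of the MAP2Ks of p38 and of the JNK- and p38-directed MKPs lie below both controls in both Foxa1/2cKO samples. Those of the MAP2Ks of ERK (84.0 and 87.4 against 89.2 and 95.2) and of the cytoplasmic MKPs (35.4 and 35.2 against 35.6 and 39.1) lie above. A single gene holds most of each of these sums that lie below or above. In the order given these are Map2k3 (62.5 to 66.6%), Dusp10 (86.1 to 90.3%), Map2k2 (62.8 to 69.2%) and Dusp6 (68.5 to 71.8%). The sums were not tested.

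The DUSPs fall into nuclear, inducible MKPs (*Dusp1*, *Dusp2*, *Dusp4* and *Dusp5*), cytoplasmic MKPs directed at ERK (*Dusp6*, *Dusp7* and *Dusp9*), MKPs directed at JNK and p38 (*Dusp8*, *Dusp10* and *Dusp16*) and atypical DUSPs. *Dusp2* (PAC-1), a nuclear phosphatase known from activated lymphocytes, was the most abundant, at 116 and 109 FPKM in the controls and 99.6 and 128 FPKM in Foxa1/2cKO. It held 29.8 to 35.6% of all DUSP transcripts, and its Foxa1/2cKO values lay on either side of both controls (log2 fold change 0.01, 95% interval -0.37 to 0.38). *Dusp5*, a nuclear phosphatase specific for ERK, was at 40.03 and 37.9 FPKM against 42.3 and 38.2 FPKM, and 22.1% of its exonic bases overlap an antisense gene. *Dusp4* (MKP-2), another nuclear phosphatase, was at 20.5 and 18.0 FPKM against 19.5 and 22.5 FPKM.

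*Dusp1* (MKP-1), an immediate early gene whose product removes phosphate from JNK, p38 and ERK, was the DUSP with the smallest p. It was at 15.6 and 15.0 FPKM in the controls and at 12.7 and 10.3 FPKM in Foxa1/2cKO, from 453 and 395 reads against 267 and 221 reads. Both Foxa1/2cKO samples lay below both controls. The mean was 15.3 ± 0.426 FPKM in control and 11.5 ± 1.75 FPKM in Foxa1/2cKO (SD, n = 2 each), a ratio of 0.752. The log2 fold change was -0.39 (standard error 0.13, 95% interval -0.73 to -0.05, adjusted p = 0.863 from limma), which did not pass over all genes tested. With Foxa1/2cKO 2 left out it was -0.25, and with Foxa1/2cKO 1 left out -0.53.

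*Dusp1* lies on the minus strand of chromosome 17 (GRCm38, 26505591 to 26508472). Its promoter is shown because it is the member that was lower with an unadjusted p under 0.05 and because the deleted factors bind forkhead sites. The RefSeq sequence of GRCm38.p6 from 250 bases before to 50 after the start, chr17:26508423-26508722 on the minus strand, reads as follows, with a cAMP response element (TGACGTCA) in capitals at -143 to -136 from the start.
Dusp1 promoter: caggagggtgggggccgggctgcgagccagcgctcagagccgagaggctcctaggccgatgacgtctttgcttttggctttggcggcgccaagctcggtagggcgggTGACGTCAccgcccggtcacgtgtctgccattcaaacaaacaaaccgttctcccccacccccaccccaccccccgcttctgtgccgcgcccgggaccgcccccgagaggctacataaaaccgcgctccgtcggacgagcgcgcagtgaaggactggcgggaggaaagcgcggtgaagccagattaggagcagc
The forkhead core TGTTTAC, searched on both strands (GTAAACA on the other), was not in this window, nor in any of the 64 RefSeq promoters that matched 50 of the members, and 3.65% of all 32851 promoters of the same length held it. TGACGTCA, its own reverse complement, was in 3 of the 64, those of *Dusp1*, *Dusp8* and *Mapk10*, and in 1.79% of all promoters. Only these exact strings were searched, so variant forms of a forkhead site were not counted. These are matches of letters in 300 bases and say nothing of binding here or elsewhere.

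*Dusp6* (MKP-3), the cytoplasmic phosphatase that ERK signalling induces and that acts on ERK, was at 24.5 and 24.1 FPKM in the controls and at 25.3 and 28.1 FPKM in Foxa1/2cKO. Its groups did not overlap, in the opposite direction to *Dusp1*, and the difference (log2 fold change 0.13, standard error 0.09, adjusted p = 0.863 from limma) did not pass. Leaving out Foxa1/2cKO 2 gave 0.056, and leaving out Foxa1/2cKO 1 gave 0.20. *Dusp7* ranged from 10.2 to 10.98 FPKM.

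*Dusp10* (MKP-5), directed at JNK and p38, was at 45.0 and 46.3 FPKM in the controls and at 42.0 and 38.4 FPKM in Foxa1/2cKO. Both Foxa1/2cKO samples were lower, by a fitted -0.18 on the log2 scale (standard error 0.09, adjusted p = 0.863 from limma), which did not pass. Without Foxa1/2cKO 2 the difference was -0.12. Its partner in target, *Dusp16* (MKP-7), was at 5.40 and 4.91 FPKM against 4.62 and 6.08 FPKM. The ratio of *Dusp2* to *Dusp1*, the nuclear phosphatases at the top and bottom of their group, was 7.45 in control 1, 7.25 in control 2 and 7.82 in Foxa1/2cKO 1. In Foxa1/2cKO 2 it was 12.4, apart from the other 3 samples.

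Of the atypical DUSPs, *Dusp11*, a phosphatase of RNA 5′ ends rather than of MAPKs, was the most abundant at 52.7 and 51.1 FPKM in the controls and 53.4 and 55.5 FPKM in Foxa1/2cKO. *Dusp22* (JKAP), which dephosphorylates Lck in T cells, was at 3.06 and 3.54 FPKM in the controls and at 2.76 and 1.80 FPKM in Foxa1/2cKO, from 140 and 147 reads against 91 and 61 reads. The groups did not overlap, but the difference (log2 fold change -0.41, standard error 0.20, adjusted p = 0.863 from limma) did not pass. The difference was -0.19 without Foxa1/2cKO 2 and -0.62 without Foxa1/2cKO 1. *Dusp23* was at 2.78 and 1.72 FPKM against 1.503 and 1.91 FPKM, where the controls differed from each other by more than the group means did. *Dusp28* (3.36 to 3.73 FPKM), *Dusp19* (4.31 to 5.89 FPKM) and *Dusp12* (9.25 to 10.7 FPKM) completed the group, and 49.8% of the exonic bases of *Dusp12* overlap other genes.

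**Figure D4:**
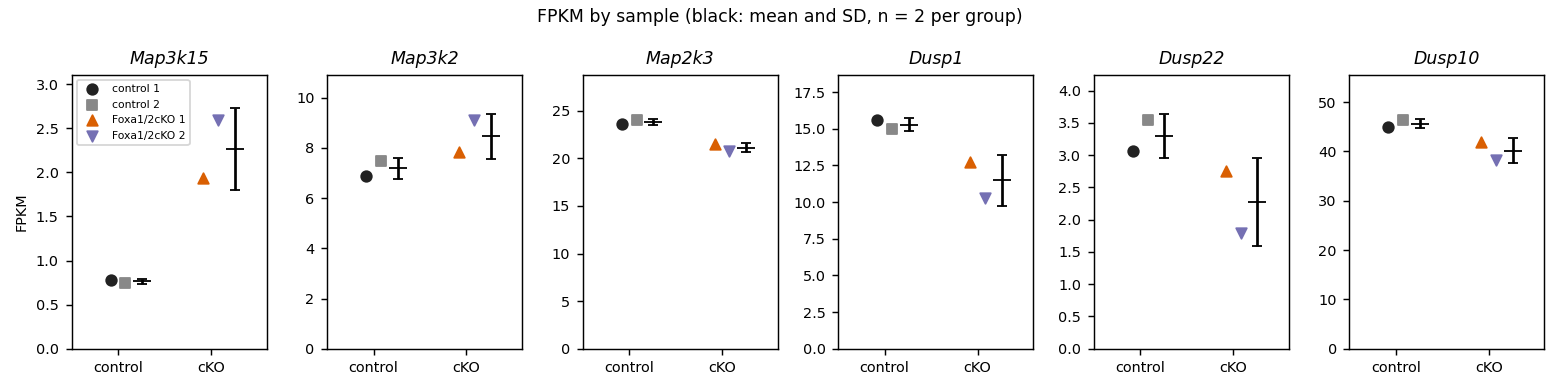
FPKM by sample, on axes from 0, for the 6 genes with the largest fitted differences among the 10 whose groups did not overlap; black bars are the mean and SD of each group (n = 2). Foxa1/2cKO 2 lies farther from the controls than Foxa1/2cKO 1 in each of the 6 panels, and the Foxa1/2cKO samples differ most from control for Map3k15 (1.94 and 2.59 against 0.784 and 0.745).

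The count of members called depended on Foxa1/2cKO 1. Without Foxa1/2cKO 1, limma gave 8 members an adjusted p under 0.05, against 23.7% of all genes: *Map4k4*, *Map2k2*, *Map3k1*, *Map3k11* and *Map3k15* higher and *Dusp1*, *Dusp10* and *Dusp22* lower. In that fit the spread came from the controls alone and Foxa1/2cKO 2 was assumed to vary as they did. Without Foxa1/2cKO 2, 0 members passed, against 0.176% of all genes. The share of members called without Foxa1/2cKO 1 was below that of all genes.

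The genes around the relay were read from lists of the same pathway. Above ERK, 0 of 17 Ras and RAF genes and 0 of 12 tested brakes on Ras had an unadjusted p under 0.05 in limma. The genes with the smallest p were *Rasgrp2*, a Ras-family exchange factor, at 57.9 and 65.0 FPKM against 56.2 and 46.2 FPKM, and the ERK-pathway kinase *Braf*, at 8.03 and 7.81 FPKM against 8.57 and 10.1 FPKM. Among the brakes, *Spry2* was at 1.82 and 1.45 FPKM against 2.00 and 2.33 FPKM. None of the 14 tested scaffolds and TAK1 partners (*Spag9*, the JNK scaffold JIP4, at 14.7 and 15.0 FPKM against 17.4 and 16.9 FPKM), of the 10 tested kinases that MAPKs activate or of the 7 tested other phosphatases of MAPKs had such a p. 0 genes of any of these lists had an adjusted p under 0.05.

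The kinases related to MAP4Ks and MAP3Ks by sequence but named otherwise held 4 of 12 tested genes with an unadjusted p under 0.05, all higher in Foxa1/2cKO, where the share of all genes was 2.39%, and 0 with an adjusted p under 0.05. *Tnik* was at 28.5 and 26.6 FPKM in the controls and 33.3 and 36.9 FPKM in Foxa1/2cKO (log2 fold change 0.34, adjusted p = 0.863 from limma). *Taok1* was at 13.2 or 13.3 FPKM in the controls and at 16.1 and 16.5 FPKM in Foxa1/2cKO (log2 fold change 0.28). In both genes each Foxa1/2cKO sample lay above each control. *Stk26* (48.7 and 46.7 against 55.5 and 62.7 FPKM) and *Stk4* (MST1; 112 and 108 against 125 and 143 FPKM) were the other genes of the 4. In the same list *Mink1* (45.5 or 45.6 against 40.2 and 40.8 FPKM) and *Taok2* (39.6 and 39.2 against 35.6 and 37.1 FPKM) were below both controls in both Foxa1/2cKO samples, without an unadjusted p under 0.05.

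The list downstream of ERK held immediate early genes together with *Srf* and Elk factors, and its median log2 fold change was 0.0036. In limma 1 of its 19 tested genes had an unadjusted p under 0.05, which is near the 4.55% of all genes. This was *Elk4*, a ternary complex factor phosphorylated by ERK, at 42.7 and 33.5 FPKM in the controls and 48.4 and 55.5 FPKM in Foxa1/2cKO (log2 fold change 0.45, adjusted p = 0.863 from limma). *Jun*, the JNK substrate, was at 3.29 and 5.52 FPKM against 2.91 and 1.75 FPKM and did not pass. *Jun* also stands in a list of genes that rise during tissue dissociation, of which 0 of 6 tested genes were higher and 1, the chaperone *Hsph1*, was lower with an unadjusted p under 0.05 (24.6 and 24.4 against 19.0 and 18.8 FPKM). In Foxa1/2cKO 2, where *Dusp1* was lowest, the other tested genes of that list went both ways. *Egr1* (167 and 137 against 117 and 196 FPKM) and *Dnajb1* (40.5 and 39.1 against 33.2 and 54.6 FPKM) were highest there. *Fos* (3.23 FPKM) and *Hsp90aa1* (64.1 FPKM) were lowest there. *Dusp1* can also rise during dissociation, and the part of dissociation in its level was not tested.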

How the data were processed

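The authors sorted CD69+DP thymocytes and sequenced their RNA on an Illumina NextSeq instrument. Alignment to mm10 was done in BaseSpace with the RefSeq annotation, and HTSeq (union mode) gave the read counts per gene. TopHat and Picard are also named in the submitters' processing notes. The deposited values are FPKM per gene and sample; how the authors turned counts into FPKM is not given in the sources used here. Every column was mapped to a sample by its name.

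FPKM were tested with limma 3.58.1 in R 4.3.3 on log2(FPKM + 1), with a mean-variance trend and no covariate. Genes that reached 1 FPKM in 2 or more samples were kept, and P-values were adjusted over all 10776 by the Benjamini-Hochberg method. The fit had 2 residual and 2.69 prior degrees of freedom, and was tested on simulated data. A pseudocount of 1 understates the change of low genes. Whole reads (tolerance 0.0001 read) were recovered from the steps of each gene's FPKM for 100% of the 16069 genes above 0. Floors of 3 reads cover counting error only. Positions and overlaps came from GENCODE vM21 (GRCm38, the same build as mm10), promoters from RefSeq. Python 3.11.15 was used for all tables and plots (pandas 2.3.3, matplotlib 3.10.9).

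The members, the pathway and marker lists and the tests were chosen with earlier results of these data known. Named in each tier were the 3 genes with the highest control mean, the 3 with the largest absolute log2 fold change, every gene with an unadjusted p under 0.05 and a core of well-known genes, and in each pathway list up to 2 genes with the smallest p. *Stk4*, *Stk26*, *Mink1*, *Taok2*, *Ptcra* and the members given only as a range were named after their values were seen, to complete a small count or a tier. *Egr1*, *Dnajb1*, *Fos* and *Hsp90aa1* were also named after their values were seen, to complete a list. Alternatives were a pseudocount of 0.1, no filter, a minimum of 5 FPKM in 2 samples, upper-quartile scaling, a replicate block and leaving out each sample. Scaling to all recovered reads and limma-voom on those reads were chosen after seeing the data. The result of 1 member is not reported here.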

Additional observations from a re-analysis of the deposited data

How the results depend on the processing

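With limma, 0 members had an adjusted p under 0.05 under each alternative except the fit without Foxa1/2cKO 1, which had 8; over the fits that leave out 1 sample the count ranged from 0 to 8. Members with an unadjusted p under 0.05 ranged from 1 to 10 higher and from 0 to 8 lower with a sample left out. Of these, *Dusp1* was lost without either control, and 8 were lower without Foxa1/2cKO 2; the cause was not tested. For the fits that leave out 1 sample, the share of all genes with an unadjusted p under 0.05 was not counted. Their member counts at that threshold therefore have no background to be set against and are no result about the family. An FPKM of at least 5 left 0 members higher at that threshold, since *Map3k15* was then not tested. Over all genes, the 1 call became 0 with a pseudocount of 0.1, no filter, an FPKM of at least 5, upper-quartile scaling, and, chosen after seeing the data, scaling to all recovered reads and limma-voom, and ranged from 0 to 2559 with a sample left out; the cause was not tested.

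The replicate numbers did not pair the samples (correlation of the deviations of same-numbered samples -0.0587), and a replicate block left 1 call over all genes, 0 among the members and every member's sign. Leaving out a sample moved the median log2 fold change by tier from -0.14 to 0.080 for MAPK, -0.062 to 0.061 for MAP2K, -0.0086 to 0.15 for MAP3K, -0.072 to 0.083 for MAP4K and -0.031 to 0.054 for DUSP genes. The sign of 30 members differed among these fits, none of them called in limma on all 4 samples, with log2 fold changes of *Mapk3* -0.032 to 0.044, *Mapk6* -0.14 to 0.082, *Mapk8* -0.018 to 0.092, *Mapk9* -0.042 to 0.073, *Mapk11* -0.34 to 0.056, *Mapk12* -0.18 to 0.12, *Mapk14* -0.20 to 0.10, *Map2k1* -0.019 to 0.15, *Map2k5* -0.16 to 0.064, *Map2k6* -0.079 to 0.054, *Map2k7* -0.062 to 0.18, *Map3k3* -0.043 to 0.082, *Map3k4* -0.028 to 0.052, *Map3k5* -0.26 to 0.045, *Map3k7* -0.037 to 0.082, *Map3k10* -0.12 to 0.15, *Map3k11* -0.21 to 0.37, *Map3k12* -0.12 to 0.20, *Map3k13* -0.11 to 0.34, *Map3k14* -0.060 to 0.13, *Map4k1* -0.17 to 0.050, *Map4k2* -0.15 to 0.032, *Map4k3* -0.057 to 0.083, *Map4k4* -0.012 to 0.21, *Map4k5* -0.072 to 0.22, *Dusp2* -0.17 to 0.18, *Dusp5* -0.029 to 0.12, *Dusp12* -0.12 to 0.054, *Dusp16* -0.13 to 0.20, *Dusp19* -0.18 to 0.20. The other 18 kept their sign. Upper-quartile scaling, which moved the median of all genes from 0.0051 to -0.013, turned the sign of 7 members: *Mapk3* -0.014, *Mapk9* -0.0043, *Map3k4* -0.0068, *Map3k10* -0.0035, *Map4k3* -0.0044, *Dusp2* -0.014, *Dusp19* -0.0070. Scaling to all recovered reads turned 9: *Mapk3* -0.028, *Mapk9* -0.018, *Map3k3* -0.014, *Map3k4* -0.020, *Map3k7* -0.011, *Map3k10* -0.016, *Map4k3* -0.016, *Dusp2* -0.028, *Dusp19* -0.019. No other alternative turned a sign. Depth limits *Mapk12*, *Dusp23* and *Dusp28*, with under 100 reads in every sample.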
